A study of Mus musculus with 9 samples.

Results

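The c-Jun NH2-terminal kinase (JNK) module is described here through 10 genes, chosen by name. They are the JNK kinases *Mapk8* (JNK1), *Mapk9* (JNK2) and *Mapk10* (JNK3), the MAP2Ks *Map2k4* (MKK4) and *Map2k7* (MKK7), and the scaffolds *Mapk8ip1* (JIP1), *Mapk8ip2* (JIP2), *Mapk8ip3* (JIP3), *Spag9* (JIP4) and *Sh3rf1* (POSH). All 10 were found among the 37104 loci of the expression tables, and 7 of them passed the filter that the model below required, a mean FPKM of 2 in at least 1 group (FPKM are fragments per kilobase of exon, scaled to the mapped fragments of the library). *Mapk10*, *Mapk8ip1* and *Mapk8ip2* were under it.

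RNA-seq was performed on primary murine lung endothelial cells (MLEC), cultured from the lungs of adult C57BL/6J mice aged 10 to 12 weeks and selected for ICAM2, with 3 libraries in each of 3 groups. E3KO cells were Cdh5-Cre+ and carried Jnk1LoxP/LoxP and Jnk2LoxP/LoxP alleles. EfCtrl cells carried the same LoxP alleles but were Cdh5-Cre-, and ECtrl cells were Cdh5-Cre+ with both genes intact (Jnk1+/+ and Jnk2+/+). All 3 groups were Jnk3-/-, so the groups differ in *Mapk8* and *Mapk9* alleles and in Cre, not in *Mapk10*. Cre was expressed from the regulatory region of *Cdh5*, an endothelial adhesion gene. Each library came from a separate isolation that pooled the lungs of several mice.

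In this pathway a MAP3K phosphorylates a MAP2K, and the MAP2K phosphorylates JNK on the Thr and Tyr of a Thr-Pro-Tyr motif in its activation loop. MKK4 and MKK7 are the known MAP2Ks of JNK, while scaffolds of the JIP group and POSH hold kinases of successive tiers together and several of them also bind motor proteins. Active JNK phosphorylates Jun and other substrates, and in endothelium the pathway is known for responses to growth factors, cytokines and stress.

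The coding sequence of the activation loop is shown because it holds the site that the MAP2Ks phosphorylate and shows how closely related the 3 kinases are. The 60-base stretches below were read from the GENCODE M21 transcripts, which are on the same build as the files (mm10), in the sense direction of each gene. Capitals mark the codons of Thr-Pro-Tyr.
*Mapk8*: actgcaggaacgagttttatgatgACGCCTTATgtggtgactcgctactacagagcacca
*Mapk9*: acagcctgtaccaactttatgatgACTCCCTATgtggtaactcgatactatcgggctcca
*Mapk10*: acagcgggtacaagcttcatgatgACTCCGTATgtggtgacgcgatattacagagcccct
The marked codons lie in exon 6 of 12 of *Mapk8* (chr14:33393003-33393011, minus strand), in exon 6 of 12 of *Mapk9* (chr11:49872830-49872838, plus strand) and in exon 8 of 14 of *Mapk10* (chr5:102989681-102989689, minus strand). Over the 60 bases *Mapk8* was identical to *Mapk9* at 45 and to *Mapk10* at 47, and *Mapk9* to *Mapk10* at 46. Over the annotated transcripts as a whole, 0 windows of 40 bases were shared between any pair of the 3 genes.

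The values of the 9 libraries need a few facts before they are read. The number of fragments behind an FPKM value cannot be read from it, so intervals for counting error are not given. The most frequent ratio between low FPKM values of the same genes gave only a rough relative depth. It was 1.11 to 1.68 times that of ECtrl replicate 2 in the other 8 libraries, with 11.6% to 31.2% of the genes used at that ratio. The library labelled E3KO replicate 1 stood apart. Its ratio of 1.57 rested on 108 genes, against 187 to 353 for the others compared. It had 19239 symbols at 0, against 16436 to 17964 in the other 8. The 10 highest symbols held 96.4% of its summed FPKM against 40.9% to 56.8% in the other 8 libraries. Without the symbols of highest mean FPKM its sum was 420517, within the range of 388537 to 433172 of the other 8. The 8 epithelial marker genes summed to 51.3 FPKM in this library against at most 6.05 elsewhere. Of this sum 46.2 FPKM came from *Scgb1a1*, the club cell secretoglobin, and the other 7 genes summed to 5.03 FPKM there against 1.40 to 4.18 elsewhere. Among these 7, *Sftpc* was at 1.35 FPKM there and at most 0.0918 elsewhere, while *Krt8*, *Krt18* and *Cdh1* were below their control means. Differences of the 10 genes and the medians of the gene lists are therefore also given without this library. All 12 endothelial markers listed were above 0 in all 9 libraries, with *Pecam1* at 643 to 798, *Cdh5* at 613 to 943 and *Icam2* at 150 to 211 FPKM. Of the 11 that could be tested, *Emcn* rose (mean 973 FPKM in the controls and 1495 in E3KO, limma adjusted p = 0.0260) and *Cldn5* fell (mean 217 and 114 FPKM, limma adjusted p = 0.0322), and neither passed without the library labelled E3KO replicate 1 (0.0540 and 0.0704). Their differences were 0.63 and -0.92 with all libraries and 0.60 and -0.81 without that library. *Vwf*, under the filter, was at 0.356 FPKM in E3KO replicates 1 and 2 and at 0.881 to 2.15 in the other 7 libraries. Summed over 9 genes, leukocyte markers reached 48.1 to 148 FPKM in ECtrl, 151 to 269 in EfCtrl and 209 to 317 in E3KO, with the defining marker *Ptprc* at 0.0919 to 1.59 in single libraries. *Lyz2* alone was at 28.0 to 111 FPKM in ECtrl, 107 to 191 in EfCtrl and 133 to 221 in E3KO. Of the 6 leukocyte markers that could be tested, 1, *Tyrobp*, was lower in E3KO than in EfCtrl (difference -0.18). The sums of 8 fibroblast markers were 4.63 to 15.2 in E3KO and 9.04 to 31.996 in the controls (*Col1a1*, 0.0131 to 6.67 in all libraries), and those of 8 smooth muscle and pericyte markers were 7.93 to 13.7 against 8.42 to 56.2 (*Acta2*, 4.31 to 35.1). *Epcam*, an epithelial adhesion gene, was at 1.79 FPKM in the library labelled E3KO replicate 1 and at most 0.277 in the others. The part of these other cell types in the results below was not tested.

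The 10 genes covered a wide range of levels in control cells. Over the 6 control libraries, *Spag9* was highest at 99.1 ± 15.7 FPKM (SD, n = 6) and *Mapk8ip2* lowest at 0.0114 ± 0.0214. FPKM are scaled for transcript length, so levels of different genes can be set side by side. The order was *Spag9*, *Mapk9* (46.5), *Map2k4* (36.5), *Mapk8* (16.0), *Map2k7* (9.58), *Mapk8ip3* (6.54), *Sh3rf1* (4.08), *Mapk8ip1* (1.65), *Mapk10* (0.127) and *Mapk8ip2*, given as mean FPKM. Each gene was compared with its neighbour in this order by exact sign flips of the difference in log2(FPKM + 0.1). In 7 of 9 pairs the higher gene was higher in 6 of 6 libraries (exact two-sided permutation p = 0.0312, which is the lowest attainable with 6 libraries, and 0.0402 after adjustment over the 9 pairs). The 2 exceptions were *Map2k7* with *Mapk8ip3* and *Mapk10* with *Mapk8ip2*, where the order held in 5 of 6 (exact permutation p = 0.0625, adjusted 0.0625).

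*Map2k7* and *Mapk8ip3* carry a further limit. In the tables they share a locus and a single value with a second gene name, *Map2k7* with *Gm14378* and *Mapk8ip3* with *Eme2*, so the genes of each pair cannot be told apart. At loci with 2 names the library values averaged 0.464 of the deposited ECtrl group value, against 0.929 at loci with 1 name (medians over 207 and 9920 loci). The same medians were 0.4705 and 0.937 in EfCtrl and 0.426 and 0.853 in E3KO, so E3KO library values were lower relative to their group value. The value listed at a shared locus is therefore close to the locus total divided by the number of names. Multiplied by that number, an alternative chosen after seeing the data, *Map2k7* moved above *Mapk8* in the order and the other places did not change.

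**Figure D1:**
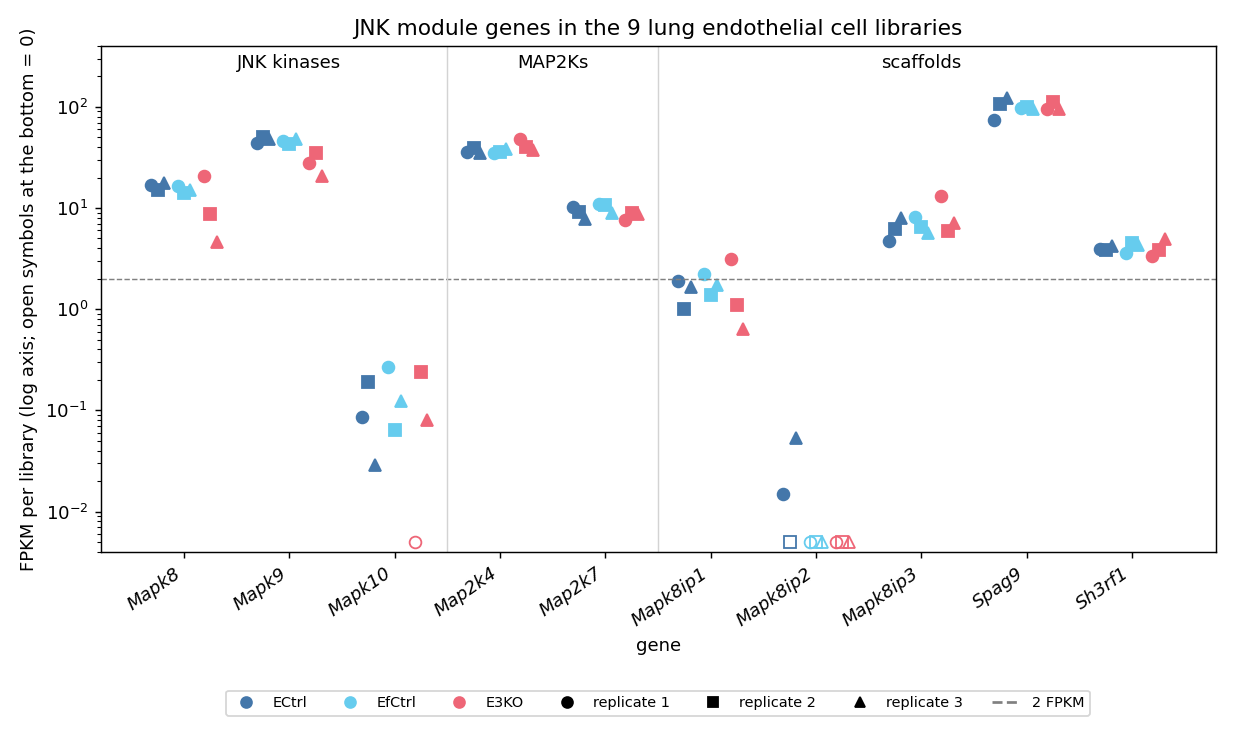
FPKM of the 10 genes in each library on a log axis, with colours for the 3 groups, symbol shapes for the replicate number (which was not used to pair the groups) and open symbols at the bottom for values of 0. Only *Mapk9* has all 3 E3KO points below all 6 control points, *Mapk8* has 2 E3KO points below and 1 above them, and the dashed line marks the 2 FPKM filter.

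The kinases targeted in E3KO cells were examined first. *Mapk9* fell in E3KO, while *Mapk8* was lower in 2 of 3 E3KO libraries and higher in the third. *Mapk9* (chr11:49846751-49886421, plus strand), the more abundant of the pair in these cells, was measured at 44.1, 50.9 and 47.9 FPKM in the 3 ECtrl libraries, at 45.5, 42.7 and 47.9 in EfCtrl and at 27.6, 35.1 and 20.7 in E3KO. All 3 E3KO libraries were below all 6 control libraries, which lay close together. The E3KO mean of 27.8 ± 7.21 FPKM (SD, n = 3) was 59.7% of the control mean of 46.5 ± 2.99 (SD, n = 6), and single E3KO libraries stood at 59.3%, 75.4% and 44.4% of it.

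On the log2(FPKM + 1) scale, where limma fitted all 10605 genes past the filter, *Mapk9* differed by -0.75 between E3KO and the mean of both control groups (SE 0.15, 95% interval -1.11 to -0.40, Benjamini-Hochberg adjusted p = 0.0359). It was the only 1 of the 7 genes tested that passed at an adjusted p under 0.05, and 4.8% of all genes tested did so (3.26% lower and 1.54% higher). The exact permutation test on log2(FPKM + 0.1) gave p = 0.0119 for *Mapk9*, the smallest that 3 against 6 libraries allow. It was also the only 1 of the 7 whose 3 E3KO libraries lay below all 6 controls, a pattern of 11.5% of all genes tested, and 0 of the 7 lay above them, a pattern of 5.18%.

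Against a single control group the difference of *Mapk9* was of similar size but did not pass. It was -0.79 against ECtrl (limma adjusted p = 0.0630) and -0.72 against EfCtrl (limma adjusted p = 0.1004), and 0 of the 7 genes tested passed in either comparison, where 2.25% and 0.952% of all genes did. The call against both controls rested on narrow margins. Leaving out any library other than E3KO replicate 2 raised the limma adjusted p to between 0.0565 and 0.0983, while leaving out E3KO replicate 2 gave 0.0289. The difference stayed between -0.56 and -0.93 in these fits. With each library centred on its median it was -0.68 (limma adjusted p = 0.0476). Shares of the control mean are of FPKM as listed, without this centring.

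*Mapk8* (chr14:33377898-33447158, minus strand) behaved differently in 1 E3KO library. Its controls were tightly grouped, with ECtrl at 17.0, 15.0 and 17.9 FPKM and EfCtrl at 16.7, 14.05 and 15.1. The E3KO libraries spread from 4.65 (replicate 3) through 8.77 (replicate 2) to 20.7 in the library labelled E3KO replicate 1. This last value was above every control library, although the label gives it LoxP alleles and Cre, and the other 2 were below every control library. As shares of the control mean of 16.0 ± 1.45 FPKM (SD, n = 6) they were 29.2%, 55.0% and 130%.

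With all libraries the difference of *Mapk8* was -0.67 on the log2(FPKM + 1) scale (SE 0.35, 95% interval -1.48 to 0.14, limma adjusted p = 0.285; exact permutation test, p = 0.0833), so it did not exceed the spread between libraries. Without the library labelled E3KO replicate 1 it was -1.18 (SE 0.20, 95% interval -1.64 to -0.73, limma adjusted p = 0.0298), a fit in which 3.58% of 10489 genes passed. In that fit *Mapk8* also passed against ECtrl (-1.24, limma adjusted p = 0.0447, 2.05% of genes passing) but not against EfCtrl (-1.13, limma adjusted p = 0.0722, 0.0572% passing). *Mapk9* differed by -0.76 without this library, with a limma adjusted p of 0.0642. The size of the *Mapk8* difference depended on which E3KO library was left out. On the log2(FPKM + 0.1) scale it was -0.74 with all libraries and -1.30 without replicate 1 (exact permutation test, p = 0.0833 and 0.0357, the latter the smallest attainable without that library). It was -0.68 without replicate 2 and -0.23 without replicate 3 (exact permutation test, p = 0.25 and 0.5). When limma weighted the libraries by their fit, *Mapk8* and *Mapk9* both passed against both controls (-1.17 and -0.83, where 12.6% of genes passed) and against EfCtrl (-1.12 and -0.78, where 11.7% passed). Neither passed against ECtrl in that fit (limma adjusted p = 0.0591 and 0.0744, where 4.34% passed).

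*Mapk10* (chr5:102907948-103211334, minus strand), the JNK gene best known from neurons and deleted in the germline of all groups, stayed at or near 0. It was listed at 0.0854, 0.192 and 0.0286 FPKM in ECtrl, at 0.2697, 0.0633 and 0.125 in EfCtrl, and at 0, 0.242 and 0.0803 in E3KO. The groups overlapped throughout (exact permutation test, p = 0.643, and 0.679 without E3KO replicate 1).

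The FPKM of the JNK genes were added up as the total JNK transcript level. This sum was 56.8 to 66.1 in the 6 control libraries (62.6 ± 3.42, SD) and 48.3, 44.1 and 25.4 in E3KO replicates 1, 2 and 3. The 3 E3KO sums were thus 77.2%, 70.5% and 40.6% of the control mean. All lay below the lowest control, a pattern that 11.5% of all genes tested showed singly. *Mapk9* made up most of the sum in every library, so this is not separate from the result for *Mapk9*. *Mapk8* supplied 22.7% to 27.8% of the sum in the controls, 19.9% and 18.3% in E3KO replicates 2 and 3, and 42.9% in the library labelled E3KO replicate 1. Put as a ratio, *Mapk9* stood at 2.59 to 3.39 times *Mapk8* in the controls, at 3.998 and 4.44 times in E3KO replicates 2 and 3, and at 1.33 times in replicate 1.

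**Figure D2:**
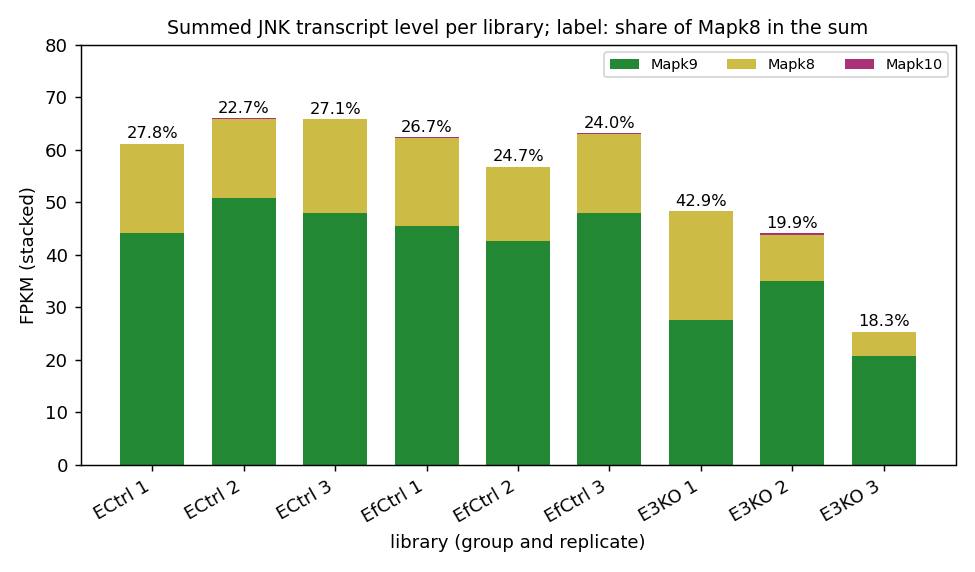
Stacked bars of the FPKM of *Mapk9*, *Mapk8* and *Mapk10* in each library, with the share of *Mapk8* in the sum printed above each bar. The E3KO bars end at 48.3, 44.1 and 25.4 FPKM, below the control range of 56.8 to 66.1, and the *Mapk8* share of 42.9% in E3KO replicate 1 is outside the control range of 22.7% to 27.8%.

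These levels count all transcripts of a locus, so RNA of a recombined allele that keeps most exons is counted together with RNA of an intact one. In bulk RNA, fewer cells with intact alleles and less RNA per cell cannot be told apart.

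The MAP2Ks showed no difference that passed the test across genes. *Map2k4* (chr11:65688243-65788297, minus strand), which encodes the kinase that prefers the Tyr of the motif, was at 36.1, 39.2 and 35.3 FPKM in ECtrl, 34.97, 35.5 and 37.98 in EfCtrl, and 48.0, 40.5 and 37.5 in E3KO. E3KO replicates 1 and 2 were above all controls and replicate 3 was within their range. The difference was 0.19 on the log2(FPKM + 1) scale (SE 0.10, 95% interval -0.04 to 0.42, limma adjusted p = 0.292), and it was 0.09 without E3KO replicate 1. With each library centred on its median it was 0.26 (95% interval 0.005 to 0.518, limma adjusted p = 0.214), which did not pass either. The exact permutation test gave p = 0.0357, unadjusted and over 10 genes tested in this way. That p was 0.0714 without ECtrl replicate 1, ECtrl replicate 3, EfCtrl replicate 1 or EfCtrl replicate 2, 0.107 without E3KO replicate 2 and 0.179 without E3KO replicate 1.

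*Map2k7* (chr8:4238740-4251423, plus strand) encodes the kinase that prefers the Thr of the motif. As listed for its shared locus it was at 10.2, 9.16 and 7.79 FPKM in ECtrl, 10.8, 10.6 and 8.92 in EfCtrl, and 7.55, 8.95 and 8.77 in E3KO. E3KO replicate 1 was the lowest of the 9 libraries and the other 2 lay among the controls. The difference was -0.16 (SE 0.11, 95% interval -0.43 to 0.10, limma adjusted p = 0.411; exact permutation test, p = 0.179), and it was -0.09 without E3KO replicate 1. The annotation places *Gm49320* and *Tgfbr3l* over the same stretch and on the same strand, and 33.3% of the 40-base windows of *Map2k7* transcripts also occur in *Gm49320*. How fragments were divided among these genes is not given in the sources used here.

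The ratio of the MAP2Ks, taken with the locus total for *Map2k7*, was 1.61 to 2.26 *Map2k4* per *Map2k7* in the controls. It was 2.26 and 2.14 in E3KO replicates 2 and 3 and 3.18 in the library labelled E3KO replicate 1. The high ratio was thus found in the same library as the high *Mapk8*.

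Among the scaffolds, none of the 3 that could be tested in the model passed. *Spag9* (chr11:93996091-94126085, plus strand), which encodes a scaffold that binds JNK, p38 and motor proteins, was the most abundant of the 10 genes in every library. It was at 73.7, 106 and 122 FPKM in ECtrl, 96.6, 99.97 and 96.0 in EfCtrl, and 95.5, 111 and 94.9 in E3KO. All E3KO libraries were within the range of ECtrl. The difference was 0.03 (SE 0.16, 95% interval -0.32 to 0.39, limma adjusted p = 0.917; exact permutation test, p = 0.881), and 0.07 without E3KO replicate 1.

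*Sh3rf1* (chr8:61224171-61396072, plus strand) encodes POSH, a RING and SH3 protein that holds Rac, mixed-lineage kinases, MAP2Ks and JNK. It was at 3.92, 3.86 and 4.25 FPKM in ECtrl, 3.61, 4.51 and 4.30 in EfCtrl, and 3.38, 3.83 and 4.99 in E3KO. The E3KO libraries held both the lowest and the highest of the 9 values. The difference was -0.01 (SE 0.12, 95% interval -0.29 to 0.26, limma adjusted p = 0.957; exact permutation test, p = 0.905), and its sign changed, to 0.059, when each library was centred on its median and, to 0.09, without E3KO replicate 1.

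*Mapk8ip3* (chr17:24886643-24936977, minus strand) encodes JIP3, which links JNK to kinesin. Its shared locus was listed at 4.77, 6.27 and 8.05 FPKM in ECtrl, 8.08, 6.43 and 5.63 in EfCtrl, and 13.1, 5.90 and 7.18 in E3KO. The value of 13.1 came from the library labelled E3KO replicate 1 and the other 2 were within the control range. The difference was 0.32 (SE 0.24, 95% interval -0.24 to 0.87, limma adjusted p = 0.454; exact permutation test, p = 0.262), and without that library it was 0.01. Of the 40-base windows of its transcripts, 18.1% are shared with other genes, among them *Eme2*, *Mrps34* and *Nme3*.

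The other 2 JIP genes were low. *Mapk8ip1* (chr2:92382918-92401263, minus strand), which encodes JIP1, was at 1.88, 0.999 and 1.65 FPKM in ECtrl and at 2.23, 1.39 and 1.74 in EfCtrl. In E3KO it was at 3.10, 1.11 and 0.642, so that replicate 1 was the highest and replicate 3 the lowest of all libraries (exact permutation test, p = 0.595, and 0.0714 without E3KO replicate 1). *Mapk8ip2* (chr15:89453913-89464468, plus strand), which encodes the mainly neuronal JIP2, was listed at 0.0148 and 0.0534 FPKM in ECtrl replicates 1 and 3 and at 0 in the other 7 libraries.

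**Figure D3:**
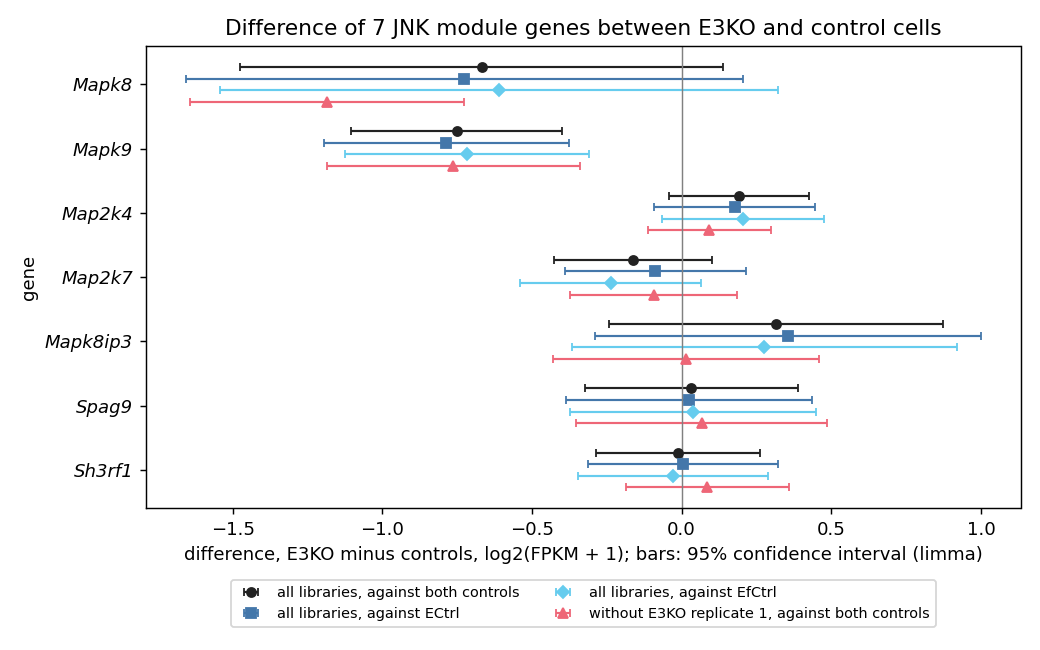
Difference of the 7 genes that passed the filter, E3KO minus controls, on the log2(FPKM + 1) scale with 95% confidence intervals from limma, against both control groups, against each alone and, in red, without the library labelled E3KO replicate 1. *Mapk9* stays between -0.72 and -0.79 in all 4 comparisons. *Mapk8* moves from -0.67 to -1.18 when that library is left out, and only then does its interval exclude 0. The intervals of the other 5 genes include 0.

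The library labelled E3KO replicate 1 was the highest of 9 for *Mapk8*, *Map2k4* and *Mapk8ip3* and the lowest for *Map2k7* and *Sh3rf1*, an extreme position in 5 of the 7 genes. Over all 10605 genes it was the highest in 20.3% and the lowest in 39.5%. Extreme values in this library were thus frequent over all genes.

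The control groups were compared next, because they differ in Cre and in the LoxP alleles. None of the 7 genes passed between EfCtrl and ECtrl, and 0% of all genes did (limma; 195 genes had an unadjusted p under 0.05). *Mapk8* differed by -0.11 (95% interval -1.05 to 0.82) and *Mapk9* by -0.07 (95% interval -0.48 to 0.34), on the log2(FPKM + 1) scale. The differences of the other 5 genes lay between -0.03 for *Map2k4* and 0.15 for *Map2k7*.

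To place these genes among all others, the genes most like *Mapk8* and *Mapk9* over the 9 libraries were sought among 10598 genes by Pearson's r on the log2(FPKM + 1) scale. The 3 most like *Mapk8* were *Anxa4* (r = 0.98), which encodes an annexin, *Oxct1* (0.96), an enzyme of ketone body use, and *Nexn* (0.95), an actin-binding protein. Each was highest or near its highest in the library labelled E3KO replicate 1 and lowest in E3KO replicate 3, as *Anxa4* shows with 66.9 and 41.4 FPKM. The 3 most like *Mapk9* were *Gpc4* (0.98), a glypican, *St8sia6* (0.97), a sialyltransferase, and *Sltm* (0.96), a nuclear RNA-binding protein. *Gpc4* was at 13.96 to 16.8 FPKM in the controls and at 11.5, 12.4 and 8.24 in E3KO. *Mapk8* and *Mapk9* themselves correlated at r = 0.65. These correlations describe 9 libraries that share their groups.

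Promoters of 8 of the 10 genes were listed by RefSeq (GRCm38.p6), at 13 start sites in all. The letters TGANTCA, the site of AP-1 factors such as Jun and the same on both strands, were present in 1 of the 13 windows of 300 bases, at a downstream start of *Map2k7*, and in 7.81% of all 32851 windows.

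The rest of the pathway was followed in 6 gene lists, of which 90 genes could be tested. In the comparison of E3KO with the mean of both controls 5 of these genes passed, all lower in E3KO. They made up 5.56% of the genes in the lists, against 3.26% of all genes tested that passed as lower, so the count was near the background. The same background holds for the count of each list below. The median difference of each list lay between -0.14 and 0.00, against -0.08 for all genes tested. Without the library labelled E3KO replicate 1 the medians lay between -0.11 and 0.04, against -0.06 for all genes. Upstream of the MAP2Ks, 0 of 13 MAP3Ks and their adaptors passed, and the sign of their median turned from -0.11 to 0.04 without that library. The one with the lowest adjusted p was *Map3k11* (MLK3), at 3.62 ± 0.730 FPKM in the controls (SD, n = 6) and 2.55 ± 0.286 in E3KO (SD, n = 3), a difference of -0.37 (SE 0.12, limma adjusted p = 0.117, and -0.30 without that library). Of 14 MAP kinases and MAP2Ks outside the JNK module, mainly of the ERK, p38 and ERK5 branches, 0 passed (median 0.00). Among them *Map2k2* (MEK2), which phosphorylates ERK, had the lowest adjusted p (8.28 and 5.004 FPKM, difference -0.64, SE 0.16, limma adjusted p = 0.0662, and -0.46 without that library).

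Of 15 dual-specificity phosphatases, 2 fell (median -0.14, and -0.10 without E3KO replicate 1). Many, but not all, members of this family remove phosphate from MAP kinases, and those differ in whether they prefer ERK, p38 or JNK. *Dusp3* (VHR), a phosphatase of ERK and JNK, was at 49.5 to 68.5 FPKM in the controls, with a median of 53.8, and at 28.5, 34.3 and 28.7 in E3KO. All 3 E3KO libraries were below all controls. The difference was -0.85 (SE 0.12, limma adjusted p = 0.0131), and *Dusp3* also passed against ECtrl (adjusted p = 0.0260), against EfCtrl (0.0458) and without the library labelled E3KO replicate 1 (0.0298). *Dusp9*, which is known mainly for ERK, was at 2.23 to 3.65 FPKM in the controls (median 2.87) and at 0.385, 1.44 and 1.18 in E3KO (difference -0.98, SE 0.19, limma adjusted p = 0.0322, and 0.0401 without that library). Against a single control group *Dusp9* did not pass (limma adjusted p = 0.0653 against ECtrl and 0.0799 against EfCtrl).

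Of 16 JNK substrates, 2 fell (median -0.13) and 15 of 16 differences were below 0, as were those of 61.8% of all genes tested. *Jun*, the substrate that gave the kinase its name, was at 11.3 to 14.7 FPKM in the controls (median 13.1) and at 7.14, 9.24 and 8.15 in E3KO, again without overlap (difference -0.60, SE 0.12, limma adjusted p = 0.0329). *Nfatc1*, a transcription factor of the calcineurin pathway, was at 47.7 to 80.5 FPKM in the controls (median 60.95) and at 30.6, 39.0 and 34.9 in E3KO (difference -0.80, SE 0.17, limma adjusted p = 0.0373). Without the library labelled E3KO replicate 1 the difference was -0.51 for *Jun* (limma adjusted p = 0.0638) and -0.71 for *Nfatc1* (limma adjusted p = 0.0796). In that fit 11 of 16 differences were below 0 (median -0.11), as were 59.7% over all genes. With all libraries neither *Jun* nor *Nfatc1* passed against a single control group. The limma adjusted p values were 0.0597 (ECtrl) and 0.0954 (EfCtrl) for *Jun* and 0.0694 and 0.0965 for *Nfatc1*.

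Among 19 other scaffolds, adaptors and upstream GTPases 1 fell (median -0.09, and -0.07 without the library labelled E3KO replicate 1). This was *Wdr62*, a JNK scaffold also known from the mitotic spindle, at 1.92 to 4.43 FPKM in the controls (median 3.38) and 0.609, 1.14 and 1.65 in E3KO (difference -1.03, SE 0.20, limma adjusted p = 0.0306). Without that library the difference was -0.84 (limma adjusted p = 0.0627). With all libraries *Wdr62* did not pass against ECtrl (limma adjusted p = 0.1001) or EfCtrl (0.0527). Of 13 motor and cargo partners of the JIP proteins 0 passed (median -0.06, and -0.01 without that library), with the lowest adjusted p for *Rilpl2*, a Rab effector relative (5.66 and 3.71 FPKM, difference -0.51, SE 0.15, limma adjusted p = 0.0957, and -0.33 without that library).

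**Figure D4:**
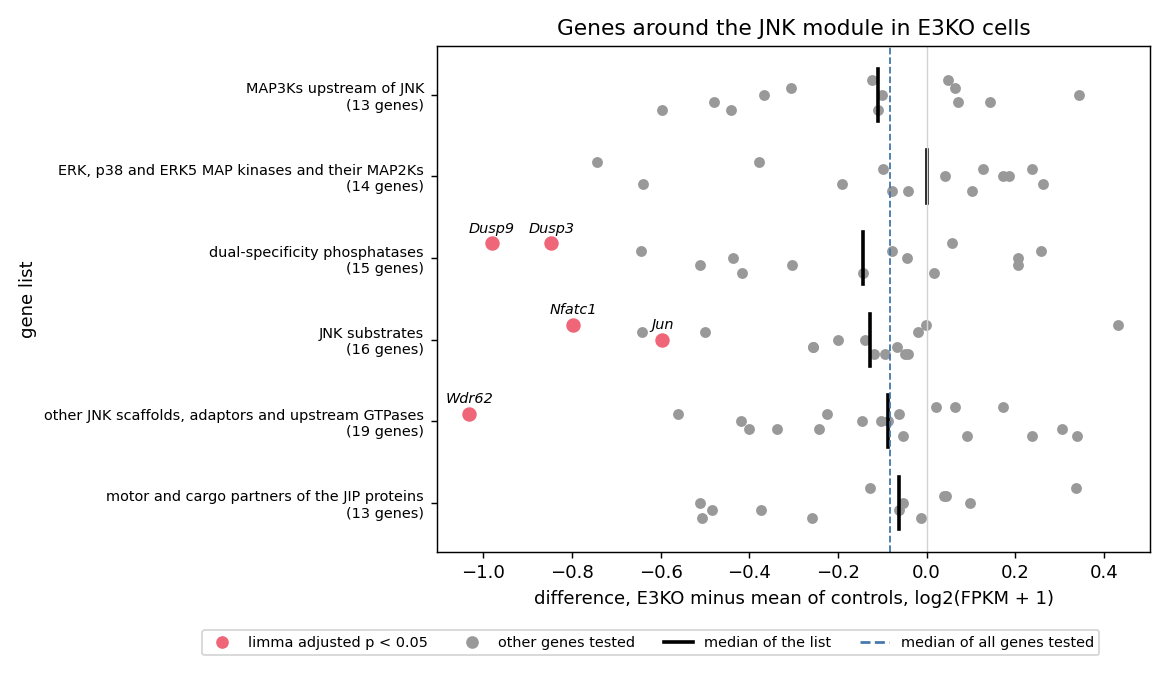
Difference of each tested gene in the 6 pathway lists, E3KO minus the mean of the controls, on the log2(FPKM + 1) scale, with black bars for list medians and a dashed line for the median of all genes tested (-0.08). The 5 genes past a limma adjusted p of 0.05, in red, are *Dusp9*, *Dusp3*, *Nfatc1*, *Jun* and *Wdr62*, and all lie left of -0.5.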

How the data were processed

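RNA-seq libraries of primary MLEC (3 each of ECtrl, EfCtrl and E3KO) were grouped by their sample labels. The authors aligned paired-end reads to mm10 with TopHat2 and estimated FPKM with Cufflinks (version 1.0.3 per the submitters' processing notes), and they compared groups with Cuffdiff. The deposited FPKM values of each library were used, and the authors' fold changes and p-values in the same tables were not. Whether strand was used in counting is not given in the sources used here. The 3749 loci that share a symbol were left out.

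The 10605 genes that reached a mean FPKM of 2 in any group were fitted with limma 3.58.1 (R 4.3.3) on log2(FPKM + 1), with 3 groups in 1 model and Benjamini-Hochberg adjustment over all genes, after a test on simulated data. Fold changes on this scale understate changes of low genes. An exact two-sided permutation test on log2(FPKM + 0.1) was applied to each of the 10 genes (84 arrangements of the group labels). A comparison of 3 libraries with 3 cannot give p below 0.1. Python 3.11.15, numpy 2.4.6, pandas 2.3.3 and scipy 1.17.1 were used.

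The 10 genes and the gene lists were chosen with earlier results of these data known. Named besides the 10 genes were, per list, up to 4 genes past the test with the largest change or else the gene with the lowest adjusted p, the 3 genes most like *Mapk8* and *Mapk9*, and 7 cell type markers. *Scgb1a1*, *Sftpc*, *Krt8*, *Krt18*, *Cdh1*, *Emcn*, *Cldn5*, *Vwf*, *Lyz2* and *Tyrobp* were named after their values were seen. Alternatives covered the pseudocount, filter, centring, variance trend, library weights, a replicate block and the omission of each library.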

Additional observations from a re-analysis of the deposited data

Results flagged for a closer look

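*Mapk8ip2* was flagged because its highest control library stood far from the others. ECtrl replicate 3 was listed at 0.0534 FPKM, while the other 5 control libraries were at 0.0148 or 0, and the gap made up 0.723 of the range of the 6 values, above Dixon's 95% critical value of 0.625. All 3 E3KO libraries were at 0. The 10 genes were each tested in this way, and with normally distributed values chance flags about 1 in 20 such groups. Several of the control values here were tied at 0, so neither that rate nor the critical value applies. No conclusion is drawn from the flag.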

How the results depend on the processing

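Of the 7 genes tested, the number past an adjusted p of 0.05 against both controls was 1 (*Mapk9*). It was 0 without the filter on low values (*Mapk9* adjusted p = 0.0597, limma), where 20429 genes were tested, and 2 with library weights (*Mapk8*, -1.17, adjusted p = 0.0146, and *Mapk9*), where the library labelled E3KO replicate 1 had a weight of 0.133. Over the omission of each library it ranged from 0 to 1, and the 1 gene without the library labelled E3KO replicate 1 was *Mapk8*, not *Mapk9*. Against ECtrl it was 0, with 1 (*Mapk9*) under a variance trend and 0 to 1 over omitted libraries. Against EfCtrl it was 0, with 2 (*Mapk8* and *Mapk9*) under library weights. Between the controls it was 0 in every fit run.

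The replicate numbers were not used to pair the libraries. Deviations of libraries with the same number correlated at -0.0395 to 0.123, and those of libraries with different numbers at -0.215 to 0.0785. These weak correlations do not settle whether libraries of the same number belong together. With the replicate number as a block, 0 of the 7 genes passed (*Mapk9* adjusted p = 0.0756, limma).

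*Sh3rf1* changed sign against both controls (0.059 centred, 0.092 with library weights) and against EfCtrl (0.040 and 0.059). Over omitted libraries the range included a change of sign for *Sh3rf1* (-0.139 to 0.086 against both controls, -0.121 to 0.103 against ECtrl, -0.156 to 0.069 against EfCtrl), *Spag9* (-0.072 to 0.108, -0.182 to 0.177 and -0.035 to 0.078) and *Mapk8ip3* (-0.025 to 0.489 against EfCtrl). Between the controls it did so for *Mapk8ip3* (-0.085 to 0.240), *Map2k4* (-0.062 to 0.017), *Sh3rf1* (-0.017 to 0.111) and *Spag9* (-0.221 to 0.138). On the permutation scale it did so for *Mapk10* (-0.668 to 0.219), *Mapk8ip1* (-0.845 to 0.209), *Sh3rf1* (-0.170 to 0.103) and *Spag9* (-0.050 to 0.095). The cause was not tested.

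Over all genes, 509 passed against both controls (163 higher, 346 lower). Centring gave 477 (209 higher, 268 lower), library weights 1333, the replicate block 202 and omitted libraries 9 to 408. The order of levels held with log2(FPKM + 1), in either control group alone and without each control library. The number of fragments behind a value is unknown, so values near 0, such as those of *Mapk10* and *Mapk8ip2*, cannot be told from 0.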
